A study of Mus musculus with 6 samples.

Results

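The tetraspanins and vesicle-sorting genes are 10 mouse genes whose proteins build, load or release extracellular vesicles, and they were read here as embryonic mRNAs in blastocysts that had been cultured with vesicles from human Fallopian tubes. The members were named by symbol as *Cd9*, *Cd63*, *Cd81*, *Cd82*, *Cd151*, *Tspan8*, *Pdcd6ip*, *Tsg101*, *Sdcbp* and *Rab27b*. No cut on their values was applied, but earlier results of these data were known when they were chosen. All 10 were found among the 55774 rows of the expression table, of which 55487 carried an Ensembl identifier. Wild-type ICR mouse embryos, from dams of 6 to 8 weeks and sires of 8 to 10 weeks, were grown for 75 h in CZB medium that held oviductal extracellular vesicles (oEVs). In the oEV-EMT group the vesicles came from women with endometriosis. In the oEV-ctrl group they came from women without it, for whom the sample labels name uterine fibroids and the methods name cervical intraepithelial neoplasia. Culture began at the two-cell stage per the labels and with zygotes per the methods, and whether vesicles of several donors were pooled is not stated. Each group had 3 libraries, each made from 10 pooled blastocysts, and no library without vesicles was analysed here. The labels do not say that the libraries came from separate cultures, so p-values measure the spread between these libraries only.

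Tetraspanins are small proteins that cross the membrane several times and gather integrins, proteases and other partners into patches of the cell surface. CD9, CD63 and CD81 are the standard surface markers of extracellular vesicles, and CD9 of the egg is needed for fusion with sperm. Vesicles called exosomes form when the membrane of an endosome buds inward, through the ESCRT complexes or through syntenin, which links syndecans to the ESCRT-associated protein ALIX. Rab GTPases then bring the loaded endosome to the cell surface. The RNA measured was that of the embryos, and polyadenylated RNA was selected for sequencing. The human vesicles could also carry RNA, and its share in these libraries was not measured.

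The values are FPKM, which divide the fragments of a gene by transcript length and library total, so levels can be compared between genes. Group differences are given on the log2(FPKM + 1) scale as oEV-EMT minus oEV-ctrl, which understates the change of low genes. Depth, as far as the smallest steps in the values show it, differed by up to 2.07 times between libraries and was highest in oEV-EMT 1. A single unannotated entry, new_gene48, held 15.3% to 18.98% of the summed FPKM in oEV-EMT and 19.66% to 31.5% in oEV-ctrl, without overlap. The values as deposited are not corrected for this difference. After scaling to a total with this entry, the median group difference of all tested genes was 0.23. After scaling to a total without it the median was 0.13, and as deposited it was 0.17. All 7 trophectoderm markers and all 5 epiblast markers were at 1 FPKM or more in every library, as were 4 of 5 primitive endoderm markers. None of the 5 cumulus and granulosa, 4 oviduct epithelium or 3 blood markers reached 1 FPKM in all libraries, and *Amh*, *Ptx3*, *Inhba*, *Foxj1*, *Hbb-bt* and *Ptprc* were at 0 throughout. The blood marker *Hba-a1* was at 0.524, 2.22 and 1.34 FPKM in oEV-EMT 1 to 3 and at 0.699, 0.472 and 1.22 FPKM in oEV-ctrl 1 to 3.

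The 10 genes fell into separate levels of expression. *Cd63*, *Cd9* and *Tspan8* stood at 1100.4 to 2559 FPKM and ranked 55, 59 and 75 among annotated genes by mean FPKM. The lowest of them was 14.4 times above the next member, *Sdcbp*, by mean FPKM. *Sdcbp* exceeded *Tsg101* in 6 of 6 libraries, with a ratio of means of 1.59, but their ranges overlapped. *Tsg101* was then 7.09 times above *Pdcd6ip*, which shared its range with *Cd82*, *Cd81* and *Cd151*. *Rab27b* lay at or near 0. Among the abundant members the ranges overlapped, although *Cd9* exceeded *Tspan8* in 6 of 6 libraries. Thus the vesicle markers *Cd9* and *Cd63* were among the most abundant mRNAs of these blastocysts, and the third standard marker, *Cd81*, was expressed at a far lower level.

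**Figure D1:**
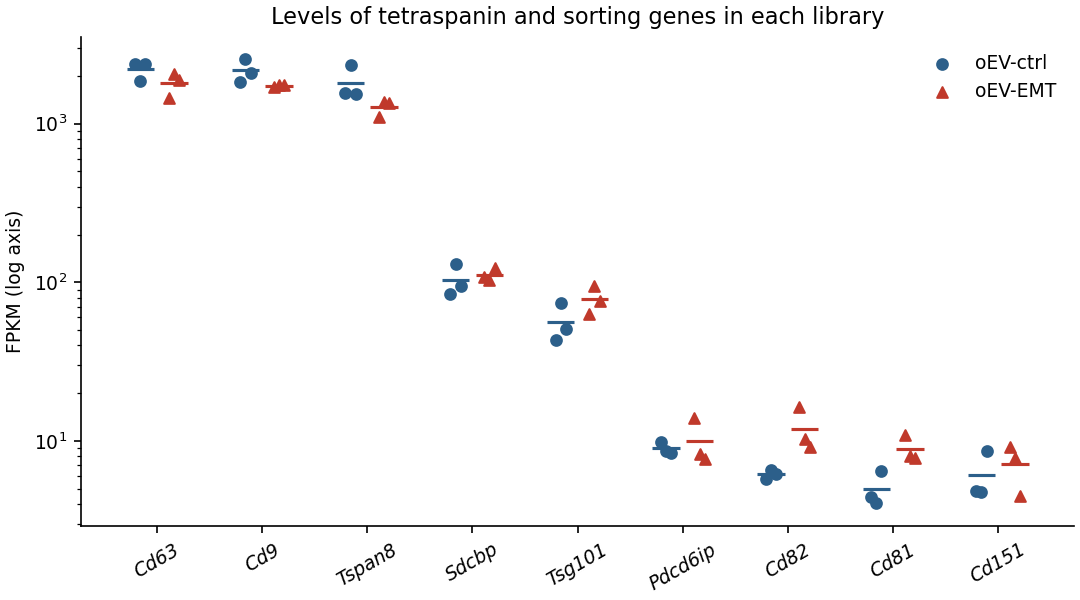
FPKM, on a log axis, of 9 members in each of the 6 libraries (*Rab27b*, at or near 0, is left out), with circles for oEV-ctrl, triangles for oEV-EMT and a bar at each group mean. *Cd63*, *Cd9* and *Tspan8* form an upper level at 1100.4 to 2559 FPKM, and *Cd82*, *Cd81*, *Cd151* and *Pdcd6ip* a lower one at 4.04 to 16.3 FPKM.

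The question put to the members was whether their mRNAs differed between blastocysts grown with oEV-EMT and with oEV-ctrl. In 9 of the 10 genes the level allowed a test, and limma called 0 of them. A call needed an adjusted p of 0.05 or less together with a log2 fold change of 1 or more in either direction. It called 0 of the 11924 genes tested, which is 0%, and the smallest adjusted p was 0.0934. At an unadjusted p of at most 0.05, limma marked 2 members as higher and 1 as lower in oEV-EMT. The same mark fell on 12.8% of all tested genes in the higher and on 2.55% in the lower direction. In the FPKM as deposited, every oEV-EMT library was above every oEV-ctrl library in 2 members, and every one was below in 2 members. Over all tested genes such separation was found in 22.4%, with 18.1% above and 4.34% below. After scaling by the median of ratios these shares became 9.85% above and 10.3% below, 20.1% in all, and the members counted 2 above and 3 below. The median log2 fold change of all tested genes was 0.17, and 0.01 after that scaling. In these bulk pools, fewer cells of a type and less RNA per cell cannot be told apart.

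The abundant tetraspanins had the lower values in oEV-EMT. *Cd9* (ENSMUSG00000030342, 6:125460266-125494791 of mm10, minus strand) was at 1691, 1765 and 1758 FPKM in oEV-EMT 1, 2 and 3, and at 1840.2, 2559 and 2101 FPKM in oEV-ctrl 1, 2 and 3. The groups did not overlap in the FPKM as deposited, and oEV-ctrl 2 stood highest. Scaled to a total of 1000000 per library, they overlapped. There oEV-ctrl 1, which has the highest summed FPKM, fell below the oEV-EMT libraries, and the log2 fold change was -0.21. The means were 1738 ± 40.5 against 2167 ± 364 FPKM (SD, n = 3 each). The log2 fold change was -0.31 ± 0.18 (SE), with a 95% interval from -0.71 to 0.10 (limma, adjusted p = 0.453). Without oEV-ctrl 2 it was -0.18.

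*Tspan8* (ENSMUSG00000034127, 10:115816832-115849893, plus strand) encodes a tetraspanin of epithelia that is carried on vesicles. Its FPKM was 1100.4, 1364 and 1347 in oEV-EMT 1 to 3 and 1559, 2352 and 1537 in oEV-ctrl 1 to 3. Here too the groups did not overlap as deposited and oEV-ctrl 2 was the highest library. Scaled to a total of 1000000, oEV-ctrl 1 fell just below oEV-EMT 2, so the groups overlapped, with a log2 fold change of -0.40. The means of 1270.2 ± 147 and 1816 ± 464 FPKM (SD, n = 3 each) gave a log2 fold change of -0.49 ± 0.21 (SE). Its 95% interval ran from -0.97 to -0.02, and the difference failed the correction over all genes (limma, adjusted p = 0.309). Without oEV-ctrl 2 the log2 fold change was -0.29.

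*Cd63* (ENSMUSG00000025351, 10:128900989-128912822, plus strand) encodes the tetraspanin of late endosomes and lysosomes. It was at 1461, 2072 and 1899 FPKM in oEV-EMT 1 to 3 and at 2380.3, 1867 and 2369 FPKM in oEV-ctrl 1 to 3. The groups overlapped, since oEV-ctrl 2 lay below oEV-EMT 2 and 3. After median-of-ratios scaling every oEV-EMT library was below every oEV-ctrl library, which makes *Cd63* the third member below under that scaling. The means were 1811 ± 315 and 2205 ± 293 FPKM (SD, n = 3 each), and the log2 fold change was -0.29 ± 0.20 (SE), with a 95% interval from -0.74 to 0.15 (limma, adjusted p = 0.512). A transcribed pseudogene, *Cd63-ps*, shares 9.70% of the 50-base stretches of *Cd63* and holds 46.9% of its own in common with it, so the authors' counting could split reads between them. *Cd63-ps* was listed at 439 to 677 FPKM, with a log2 fold change of -0.11. The summed FPKM of both, an alternative chosen after seeing the data, gave -0.25 ± 0.20 (SE) (limma, adjusted p = 0.579).

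The other tetraspanins among the members were low, and 2 of them had the higher values in oEV-EMT. *Cd81* (ENSMUSG00000037706, 7:143052739-143067934, plus strand), a partner of immunoglobulin-superfamily proteins and integrins, was at 10.8, 8.07 and 7.85 FPKM in oEV-EMT 1 to 3. In oEV-ctrl 1 to 3 it was at 4.41, 4.04 and 6.42 FPKM, so that the groups did not overlap. The means were 8.91 ± 1.66 and 4.96 ± 1.28 FPKM (SD, n = 3 each). The log2 fold change was 0.74 ± 0.24 (SE), with a 95% interval from 0.21 to 1.28, which failed the correction over all genes (limma, adjusted p = 0.211).

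*Cd82* (ENSMUSG00000027215, 2:93419111-93463140, minus strand) is known as a suppressor of metastasis. It was at 16.3, 10.2 and 9.21 FPKM in oEV-EMT 1 to 3 and at 5.77, 6.57 and 6.15 FPKM in oEV-ctrl 1 to 3. The groups did not overlap, and the spread of oEV-EMT came mainly from its library 1. The means were 11.9 ± 3.81 and 6.16 ± 0.401 FPKM (SD, n = 3 each), and the log2 fold change was 0.81 ± 0.25 (SE), with a 95% interval from 0.26 to 1.36. This was the lowest p among the members and also failed the correction (limma, adjusted p = 0.190). Epiblast markers summed to 81.7 to 103 FPKM in oEV-EMT and to 38.7 to 61.6 FPKM in oEV-ctrl, also without overlap. *Nanog*, at 46.2 to 56.1 against 12.98 to 37.5 FPKM, was the largest term of that sum in all 6 libraries, and *Pou5f1* was at 15.4 to 23.9 against 6.94 to 13.7 FPKM. *Sox2* was at 3.24, 1.14 and 1.23 FPKM in oEV-EMT 1 to 3 against 3.17, 1.99 and 2.13 FPKM, and *Klf2* also overlapped. Oocyte markers summed to 3.84 to 6.93 and to 2.35 to 3.29 FPKM, with 1 of 5 at 1 FPKM or more in all libraries and *Oosp1* at 0. Trophectoderm markers summed to 3123 to 4734 FPKM in oEV-EMT and to 3074.5 to 4826 FPKM in oEV-ctrl, with overlap. Primitive endoderm markers, at 30.3 to 46.9 against 30.6 to 36.1 FPKM, overlapped too, as did the sums of the other marker lists. The part of any marker list in the *Cd81* and *Cd82* values was not tested.

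*Cd151* (ENSMUSG00000025510, 7:141467392-141471473, plus strand), which binds laminin-binding integrins, was at 9.12, 7.74 and 4.46 FPKM in oEV-EMT 1 to 3. The oEV-ctrl libraries were at 4.84, 4.78 and 8.61 FPKM. The lowest library was an oEV-EMT one and the groups overlapped widely. The log2 fold change was 0.19 ± 0.30 (SE) (limma, adjusted p = 0.789), and -0.038 after upper-quartile scaling. Leaving out each library in turn gave 0.0078, without oEV-EMT 1, to 0.45, without oEV-EMT 3.

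The promoters of the 4 members whose groups did not overlap in the FPKM as deposited are shown because their differences ran in opposite directions. RefSeq (GRCm38.p6) gave promoter windows, 250 bases before to 50 bases after a transcript start, for 8 of the 10 members, and *Sdcbp* and *Rab27b* had no entry. Capitals mark matches, on either strand, to the GC box GGGCGG, the CCAAT box, the TATA box TATAAA, the AP-2 motif GCCNNNGGC, which can overlap a GC box, or the TEAD motif GGAATG. Each sequence is written 5′ to 3′ on the strand of its gene. The windows are chr6:125494711-125495010 (minus strand) for *Cd9*, chr10:115817034-115817333 (plus strand) for *Tspan8*, chr7:143052500-143052799 (plus strand) for *Cd81* and chr2:93462901-93463200 (minus strand) for *Cd82*, whose outermost of 4 windows is given.
Cd9: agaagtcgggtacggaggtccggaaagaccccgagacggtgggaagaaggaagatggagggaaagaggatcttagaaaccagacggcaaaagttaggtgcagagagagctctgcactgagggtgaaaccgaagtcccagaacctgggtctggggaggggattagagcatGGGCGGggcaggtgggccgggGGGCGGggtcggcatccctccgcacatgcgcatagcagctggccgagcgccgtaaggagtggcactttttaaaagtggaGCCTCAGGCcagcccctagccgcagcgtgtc
Tspan8: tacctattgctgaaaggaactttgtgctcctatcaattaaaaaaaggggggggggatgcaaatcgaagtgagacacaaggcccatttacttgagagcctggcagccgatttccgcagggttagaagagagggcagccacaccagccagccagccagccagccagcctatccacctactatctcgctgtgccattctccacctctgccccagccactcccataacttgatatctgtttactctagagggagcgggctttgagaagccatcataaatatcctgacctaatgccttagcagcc
Cd81: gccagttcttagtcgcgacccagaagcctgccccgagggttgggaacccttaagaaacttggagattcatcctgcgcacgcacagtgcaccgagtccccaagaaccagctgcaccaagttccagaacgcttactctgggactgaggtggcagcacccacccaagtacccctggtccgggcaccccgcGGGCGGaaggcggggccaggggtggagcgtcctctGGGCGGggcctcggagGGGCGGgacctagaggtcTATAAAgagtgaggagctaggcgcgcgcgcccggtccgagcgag
Cd82: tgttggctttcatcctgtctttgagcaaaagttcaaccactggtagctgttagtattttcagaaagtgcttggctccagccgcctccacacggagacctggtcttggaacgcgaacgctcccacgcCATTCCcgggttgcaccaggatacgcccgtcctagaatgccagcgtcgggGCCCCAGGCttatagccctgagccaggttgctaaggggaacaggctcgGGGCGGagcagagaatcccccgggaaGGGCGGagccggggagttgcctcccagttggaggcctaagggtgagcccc

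The *Cd9* window held 2 GC boxes and 1 AP-2 motif, with 18 CpG and 61.3% G and C. The *Tspan8* window held none of the 5 motifs, 5 CpG and 51.7% G and C. In *Cd81* there were 3 GC boxes, 1 TATAAA, 23 CpG and 65.7% G and C. The *Cd82* window held 2 GC boxes, 1 AP-2 motif, 1 TEAD motif, 16 CpG and 60.7% G and C. Some matches lay at or past the start site used: the *Cd81* TATAAA began at position 6, the *Cd9* AP-2 motif at 19 and 1 *Cd82* GC box at 0. Over all 32851 promoter windows of the table, 35.7% held a GC box, 37.4% CCAAT, 13.6% TATAAA, 16.6% the AP-2 and 14.7% the TEAD motif, with a median of 7 CpG and 52.7% G and C. The 2 lower members therefore differed from each other in these letters, as *Cd9* had more CpG than the median window and *Tspan8* fewer. The start site used lies inside the gene as GENCODE draws it for each of these windows, and farthest inside for *Tspan8*. A match describes the letters only.

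**Figure D2:**
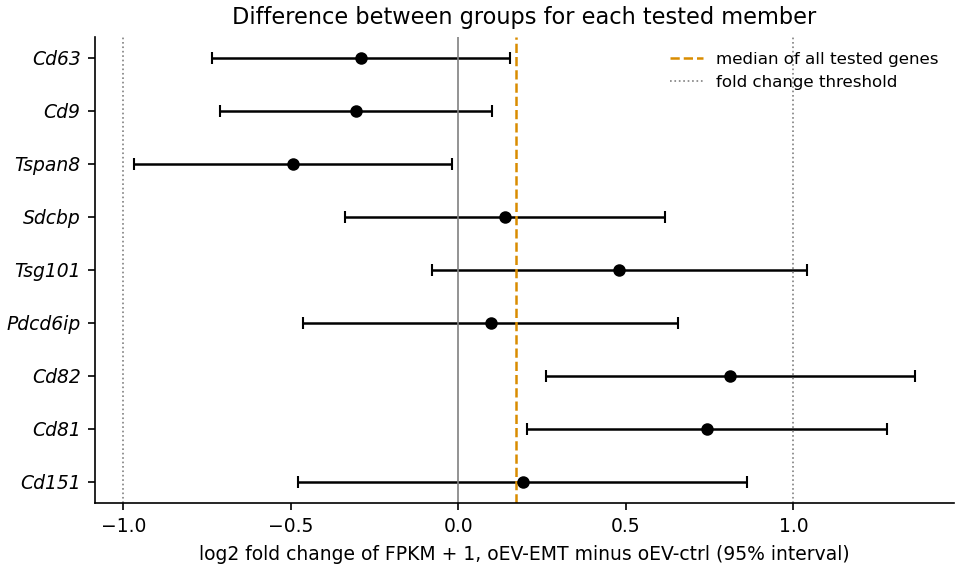
Log2 fold change of oEV-EMT over oEV-ctrl for the 9 tested members, as points with 95% intervals from limma, with a dashed line at the median of 0.17 over all 11924 tested genes and dotted lines at the fold change threshold. *Cd9*, *Cd63* and *Tspan8* lie below 0. *Cd81*, *Cd82* and *Tsg101* lie above the median of all genes, and *Cd151*, at 0.19, just above it.

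In each of the 3 sorting genes the groups overlapped. *Tsg101* (ENSMUSG00000014402, 7:46888949-46919969, minus strand) encodes the ESCRT-I subunit that binds ubiquitinated cargo. Its FPKM was 62.9, 94.97 and 76.3 in oEV-EMT 1 to 3 and 43.5, 74.4 and 50.9 in oEV-ctrl 1 to 3. The groups overlapped through oEV-EMT 1 and oEV-ctrl 2. The means were 78.0 ± 16.1 and 56.3 ± 16.1 FPKM (SD, n = 3 each), and the log2 fold change was 0.48 ± 0.25 (SE), with a 95% interval from -0.08 to 1.04 (limma, adjusted p = 0.386).

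*Sdcbp* (ENSMUSG00000028249, 4:6365650-6408423, plus strand) encodes syntenin. It was at 108, 103 and 123 FPKM in oEV-EMT 1 to 3 and at 84.0, 129.6 and 94.4 FPKM in oEV-ctrl 1 to 3, with oEV-ctrl 2 the highest of all libraries. The means of 112 ± 10.2 and 103 ± 23.9 FPKM (SD, n = 3 each) gave a log2 fold change of 0.14 ± 0.22 (SE) (limma, adjusted p = 0.785). It was 0.0077 without oEV-ctrl 1 and 0.32 without oEV-ctrl 2. The reported difference was smaller than the spread and below the median of all genes.

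*Pdcd6ip* (ENSMUSG00000032504, 9:113651744-113708259, minus strand) encodes ALIX. It was at 13.9, 8.31 and 7.73 FPKM in oEV-EMT 1 to 3 and at 9.87, 8.64 and 8.43 FPKM in oEV-ctrl 1 to 3. Only oEV-EMT 1 stood above the control libraries, and the other two lay below all of them. The log2 fold change was 0.10 ± 0.25 (SE) (limma, adjusted p = 0.876), and -0.14 without oEV-EMT 1.

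*Rab27b* (ENSMUSG00000024511, 18:69979131-70141605, minus strand), a GTPase that docks loaded endosomes at the cell surface, was listed at 0 in 5 of 6 libraries and at 0.0134 FPKM in oEV-EMT 2. It was too low to test. Its paralog *Rab27a*, named here after its values were seen, was also too low to test, at 2.24, 1.497 and 0.540 FPKM in oEV-EMT 1 to 3 and 0.217, 0.355 and 0.482 FPKM in oEV-ctrl 1 to 3. Those groups did not overlap, with 0.540 against 0.482 FPKM at the nearest. The share of genes too low to test that separate was not computed. *Cd37* and *Itga3*, from the lists given below and also too low to test, separated in the same direction.

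Since any library-wide factor cancels in a ratio of 2 genes of 1 library, members were also set against each other. The ratio of *Cd9* to *Cd81* was 156, 219 and 224 in oEV-EMT 1 to 3 and 417, 634 and 327 in oEV-ctrl 1 to 3, without overlap. For *Cd63* to *Cd81* it was 135, 257 and 242 against 539, 462 and 369, again without overlap. The ratios of *Cd9* to *Cd63*, at 0.773 to 1.37, and of *Cd9* to *Tspan8*, at 1.09 to 1.54, overlapped between groups. So did *Tsg101* to *Pdcd6ip*, at 4.41 to 11.4, and *Sdcbp* to *Pdcd6ip*, at 7.82 to 15.9. Of these 6 ratios, that of *Cd9* to *Cd81* had to separate, since each gene separated on its own in opposite directions as deposited. Both ratios to *Cd81* also set an abundant against a low gene, and the share of other such pairs that separate was not computed.

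All members together summed to 4474, 5433 and 5232 FPKM in oEV-EMT 1 to 3 and to 5932, 7006 and 6183 FPKM in oEV-ctrl 1 to 3. *Cd9*, *Cd63* and *Tspan8* made up 95.1% to 97.4% of these sums. As a share of the FPKM of annotated genes, the sums were 0.655 ± 0.0532% in oEV-EMT and 0.768 ± 0.0619% in oEV-ctrl (SD, n = 3 each), and these shares overlapped.

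Over all genes the direction differed with the level of the gene. Of the 119 annotated genes at a mean of at least 1000 FPKM, which include *Cd9*, *Cd63* and *Tspan8*, 85 were lower and 34 higher in oEV-EMT, and the median difference was -0.15 on the log2 scale, or -0.35 after median-of-ratios scaling. In 37 of them, or 31.1%, every oEV-EMT library was below every oEV-ctrl library. Among the 6641 tested annotated genes under 10 FPKM, the level of *Cd81*, *Cd82*, *Cd151* and *Pdcd6ip*, the median was 0.15. Of these, 14.7% lay wholly above and 3.92% wholly below oEV-ctrl. The medians were 0.22 at 10 to 100 FPKM, the level of *Tsg101*, and 0.16 at 100 to 1000 FPKM, the level of *Sdcbp*. *Cd9* at -0.31 and *Tspan8* at -0.49 were thus further down than the median of equally abundant genes, and *Cd81* and *Cd82* further up than that of low genes, and no test of these distances was made.

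**Figure D3:**
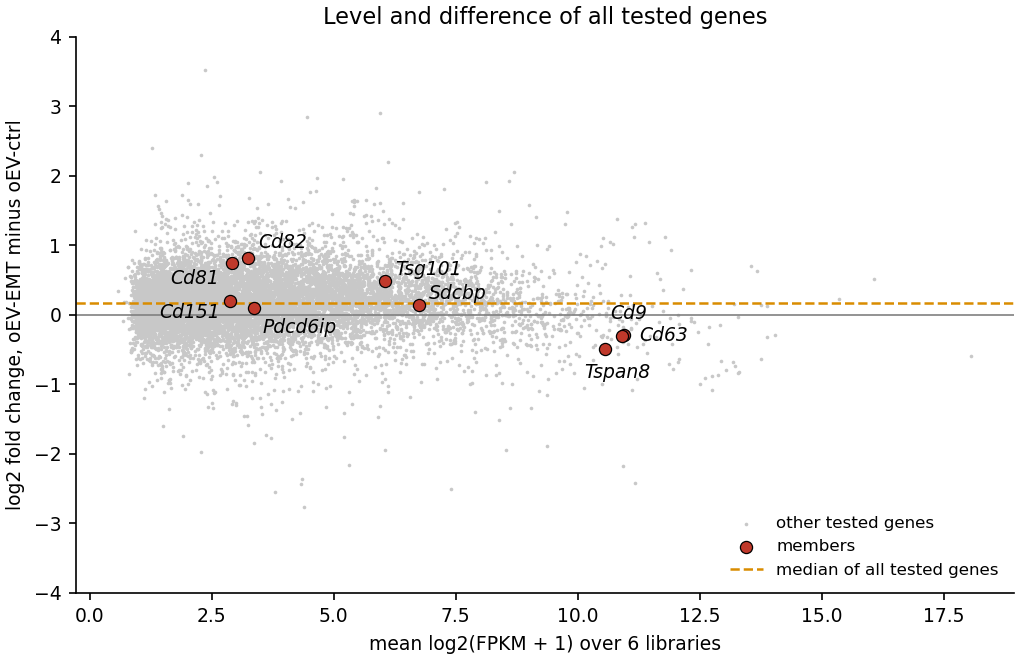
Mean log2(FPKM + 1) over the 6 libraries against the log2 fold change of oEV-EMT over oEV-ctrl, with 1 grey point per tested gene, the 9 tested members in red and named, and a dashed line at the median of all tested genes. The abundant members sit in the region at or above 1000 FPKM, where the median is -0.15, and the low members in the region under 10 FPKM, where it is 0.15.

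A single library, oEV-EMT 1, held extreme values of 7 members. It was the lowest of all 6 for *Cd9*, *Cd63* and *Tspan8*, and the highest of all 6 for *Cd81*, *Cd82*, *Cd151* and *Pdcd6ip*. It was also the deepest library, at 2.07 times the shallowest, and the part of depth in these values was not tested. Without it the log2 fold change was -0.29 for *Cd9*, -0.14 for *Cd63*, -0.39 for *Tspan8*, 0.61 for *Cd81*, 0.58 for *Cd82*, 0.0078 for *Cd151* and -0.14 for *Pdcd6ip*.

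The wider machinery was read from 7 lists with 104 genes, of which 81 were tested and 0 called by limma. The smallest adjusted p was 0.157. At an unadjusted p of at most 0.05 limma marked 13 of the 81 as higher and 1 as lower, against 12.8% and 2.55% of all tested genes. In 19 of the 81 the oEV-EMT libraries were wholly above and in 1 wholly below, against 18.1% and 4.34% of all tested genes. After median-of-ratios scaling the counts were 14 and 7, against 9.85% and 10.3% of all tested genes. The median log2 fold change of the 81 genes was 0.19, beside 0.17 over all genes. Over the 4 other scalings it ran from -0.03 to 0.25. The medians of the partners, ESCRT-III and VPS4, the syndecan route and vesicle release were above 0 as reported and turned below 0 under at least 1 of these scalings, so no direction is given for these lists.

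The other tetraspanins were the list with the highest median. Of 25 listed, 14 were tested, 13 had a fold change above 0 and 1 below, while 70.1% of all tested genes were above 0. Their median was 0.46, which is 0.29 above that of all genes and stayed between 0.18 and 0.44 above it over the alternatives. In 5 of the 14 the oEV-EMT libraries were wholly above and in 0 wholly below, with and without median-of-ratios scaling. Over all tested genes the shares were 18.1% above and 4.34% below as deposited, and 9.85% and 10.3% after that scaling. *Tspan31*, the most abundant, was at 122 ± 6.21 FPKM in oEV-EMT and 79.4 ± 13.7 FPKM in oEV-ctrl (SD, n = 3 each), with a log2 fold change of 0.63 (limma, adjusted p = 0.205). *Tspan13*, named after its values were seen because it had the smallest adjusted p of the 7 lists, was at 5.63 ± 0.229 and 2.73 ± 0.142 FPKM, with a log2 fold change of 0.83 (limma, adjusted p = 0.157). *Tspan7* had the highest fold change at 1.24, which came from 11.6 FPKM in oEV-EMT 1, while the other libraries lay at 0.145 to 1.60 FPKM. The uroplakin *Upk1b* was the lowest at -0.08.

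Among 5 tested partners of tetraspanins the median was 0.12, and -0.13 to 0.20 over the scalings. No partner was apart between groups as deposited. After median-of-ratios scaling 0 were wholly above and 2 wholly below, against 9.85% and 10.3% of all tested genes. The adhesion protein *Epcam*, the most abundant, was at 0.24 and the integrin chain *Itga6* at 0.53, with overlapping groups. *Adam10*, the sheddase that TspanC8 tetraspanins guide, had the lowest log2 fold change of all 7 lists at -1.36 (limma, adjusted p = 0.253). It was at 1.38, 0.749 and 0.743 FPKM in oEV-EMT 1 to 3 and at 7.04, 1.14 and 6.12 FPKM in oEV-ctrl 1 to 3, so that oEV-ctrl 2 lay within the range of oEV-EMT.

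Of the ESCRT-0, -I and -II genes, which recognise cargo, 13 of 14 were tested and their median was 0.19. In 4 of them oEV-EMT was wholly above and in 0 wholly below, against 18.1% and 4.34% of all tested genes, and after median-of-ratios scaling in 2 above and 1 below, against 9.85% and 10.3%. *Vps28*, the most abundant, was at 0.16, *Mvb12b* at 0.68 and *Vps36* at -0.09 on the log2 scale. The ESCRT-III and VPS4 genes cut the budding vesicle free, and all 14 were tested, with a median of 0.20. Over the scalings it ran from -0.046 to 0.26. As deposited 3 of them were wholly above and 1 wholly below, and after median-of-ratios scaling 1 above and 0 below, beside the same shares of all tested genes. *Chmp2a*, the most abundant, was the single gene of the 7 lists with every oEV-EMT library below every oEV-ctrl library, at 326 ± 27.1 against 373 ± 42.4 FPKM (SD, n = 3 each) and a log2 fold change of -0.19. After median-of-ratios scaling its groups overlapped, and the 7 genes wholly below were then in the other lists. *Vta1*, the cofactor of VPS4, was the highest at 0.48 without overlap of the groups, and *Chmp4b* the lowest at -0.66 with overlap.

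Of the syndecan, syntenin and ALIX genes, 6 of 10 were tested, with a median of 0.10, or -0.13 to 0.17 over the scalings. No gene was apart between groups as reported, and 1 was wholly below after median-of-ratios scaling. *Sdc4*, a syndecan, was both the most abundant and the highest at 0.49, and *Arf6*, a GTPase of this route, the lowest at -0.21. Vesicle release had 17 tested genes of 21 and a median of 0.07, or -0.16 to 0.15 over the scalings. *Rab11a* was at 0.24, the sphingomyelinase *Smpd2* at 0.59 and *Unc13d*, which acts with RAB27 in secretion, at -0.52. In this list 2 genes were wholly above and 0 wholly below as deposited, and 2 above and 2 below after median-of-ratios scaling. Other vesicle cargo had 12 tested genes of 13, a median of 0.31, and 5 genes wholly above and 0 wholly below. After median-of-ratios scaling these counts were 4 and 1. The same shares of all tested genes were 18.1% above and 4.34% below as deposited, and 9.85% and 10.3% after scaling. *Hspa8*, the most abundant, was at -0.17, *Rdx*, which ties membrane proteins to actin, at -0.45, and *Flot2*, a raft scaffold, at 0.78 (limma, adjusted p = 0.192).

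**Figure D4:**
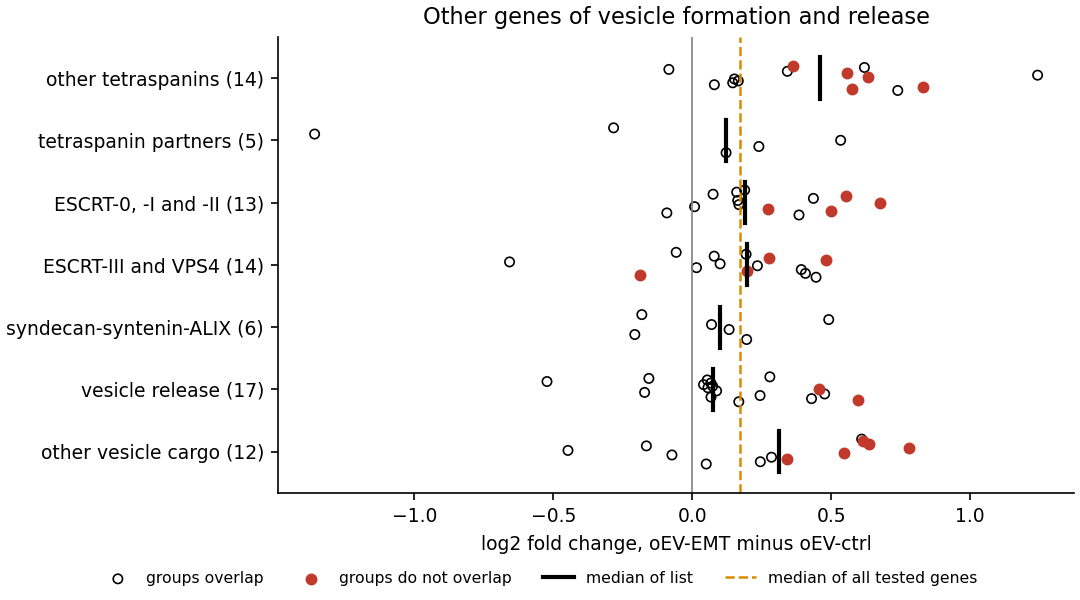
Log2 fold change of oEV-EMT over oEV-ctrl for each tested gene of the 7 lists, with 1 point per gene (filled where the groups did not overlap), a bar at the median of each list and a dashed line at the median of 0.17 over all tested genes. The other tetraspanins have the highest list median at 0.46 and vesicle release the lowest at 0.07.

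**Figure D5:**
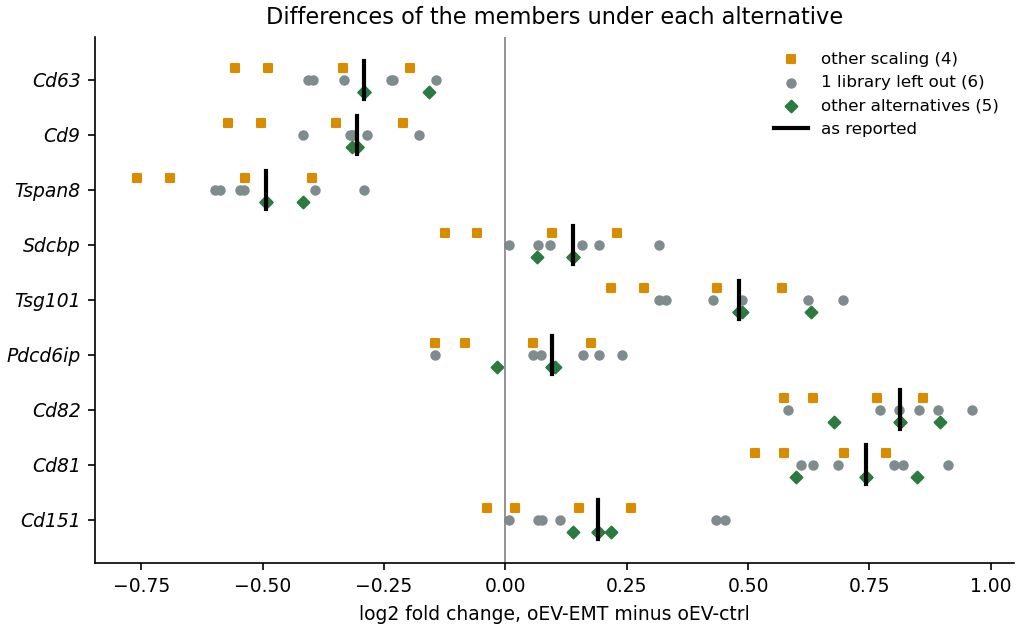
Log2 fold change of the 9 tested members under the reported fit and each of the 15 alternatives, with a bar for the reported value and 1 point per alternative (squares for scaling, circles for a library left out, diamonds for the others). *Cd9*, *Cd63* and *Tspan8* stay below 0 and *Cd81*, *Cd82* and *Tsg101* above 0 in all of them, while *Sdcbp*, *Pdcd6ip* and *Cd151* cross 0.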

How the data were processed

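RNA from 6 pools of 10 blastocysts was sequenced after oligo (dT) selection. The authors mapped to mm10, assembled transcripts with StringTie, whose version is not given in the sources used here, and deposited 1 FPKM value per gene and library. Their methods speak of TPM, but the deposited columns sum to more than 1000000 and differ, so they were read as FPKM. Low values rise in steps that scale with transcript length, which does not tell FPKM from TPM. The smallest steps gave the relative depth of the libraries. Read totals are not given in the sources used here, so no counting interval was computed.

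Genes at 1 FPKM or more in at least 3 libraries were kept, and limma 3.58.1 (R 4.3.3), with trended and robust variance, was run on log2(FPKM + 1) without further scaling between libraries. P-values were two-sided and adjusted by Benjamini-Hochberg over all 11924 tested genes. An exact test of 3 libraries against 3 cannot give a p below 0.1 and was not used.

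The members and lists were chosen with earlier results of these data known. In each list the most abundant gene, the genes with the highest and lowest log2 fold change, and any called gene were named. Of 104 listed genes 103 matched the table, through the names of GENCODE M21. For each tested member the gene with the nearest profile over the 6 libraries was also named. Sequence shared between genes was searched as identical stretches of 50 bases in GENCODE M21 transcripts. Alternatives covered scaling, filter, pseudocount, variance model, array weights, a block for the replicate number and each library left out in turn. Coordinates of genes are those of GENCODE M21 on GRCm38 (mm10).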

Additional observations from a re-analysis of the deposited data

How the results depend on the processing

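None of the 9 tested members was called by limma in any of the 15 alternatives. Over all genes the reported fit called 0, a fit with array quality weights called 104, 73 of them up and 31 down in oEV-EMT, and the fit with a replicate block called 21, 13 up and 8 down, with 0 members among them. Leaving out each library in turn gave 0 to 17 called genes, with 4 without oEV-EMT 1, 1 without oEV-EMT 3 and 17 without oEV-ctrl 3. The cause of these differences was not tested. The deviations of same-numbered libraries from their group means correlated at 0.119, -0.0442 and 0.0388, and not every library correlated best with its own number. With 3 libraries per group these correlations cannot decide whether equal numbers mark a shared culture or batch.

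The direction of 6 tested members held in all 15 alternatives. *Cd9* ranged from -0.57 to -0.18, *Cd63* from -0.56 to -0.14, *Tspan8* from -0.76 to -0.29, *Cd81* from 0.51 to 0.91, *Cd82* from 0.57 to 0.96 and *Tsg101* from 0.22 to 0.70. The sign of *Sdcbp* turned to -0.058 with median-of-ratios and -0.13 with upper-quartile scaling. That of *Pdcd6ip* turned to -0.084 and -0.14 with these scalings, to -0.018 with array weights and to -0.14 without oEV-EMT replicate 1, the lowest of -0.14 to 0.24 over the libraries left out. *Cd151* turned to -0.038 with upper-quartile scaling. The median of all genes was 0.01 with median-of-ratios and -0.04 with upper-quartile scaling, beside 0.17 as reported. The medians of the 7 lists, relative to that of all genes, moved by less than their spread between replicates (SD of 0.055 to 0.12) in 88 cases and by more in 17. Without a filter on low values, which by construction adds genes near 0 and lowers the median of all genes to 0.02, they were 0.44 for other tetraspanins, 0.099 for partners, 0.17 for ESCRT-0, -I and -II, 0.17 for ESCRT-III and VPS4, 0.078 for the syndecan route, 0.051 for release and 0.29 for other cargo. Leaving out each library gave 0.18 to 0.31 for other tetraspanins, -0.15 to 0.018 for partners, 0.048 to 0.19 for ESCRT-0, -I and -II, -0.21 to 0.016 for the syndecan route and -0.12 to -0.0090 for release, beside reported values of 0.29, -0.05, 0.017, -0.071 and -0.098. The values farthest from the reported ones came without oEV-EMT 1 for other tetraspanins, oEV-EMT 2 for partners, the syndecan route and release, and oEV-EMT 3 for ESCRT-0, -I and -II. For *Rab27b*, at 0.0134 FPKM or less, a difference was not detectable at this depth.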

Other observations

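The profile of each tested member over the 6 libraries, as log2(FPKM + 1) less its own mean, was set beside that of every other tested gene with an Ensembl identifier. *Anapc13*, a subunit of the anaphase-promoting complex, lay nearest to *Cd9* at a root mean square distance of 0.0492. *Pomc* lay nearest to *Cd63* at 0.0684, and the mitochondrial tRNA gene *mt-Tl2* nearest to *Tspan8* at 0.0874. *Gmppa* was nearest to *Cd81* at 0.0232, *Prmt1* to *Cd82* at 0.0650 and *Dclre1c* to *Cd151* at 0.0653. For the sorting genes, *Ddb1* was nearest to *Pdcd6ip* at 0.0350, *Pla2g10* to *Tsg101* at 0.0593 and *Tex30* to *Sdcbp* at 0.0482. Each of these distances rests on 6 libraries and on a search among all tested genes, and is given as a description.

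Of the genes that overlap a member, *Nsmaf*, on the opposite strand to *Sdcbp*, was at 2.89 to 4.95 FPKM. The antisense genes *4930422I22Rik* at *Tspan8* and *Gm28809* at *Cd9* were at 0.0557 to 0.257 FPKM and at 0.140 to 0.849 FPKM. Whether counting used the strand is not given in the sources used here, so reads of such pairs may not be told apart. *Tsg101-ps* shares 18.1% of the 50-base stretches of *Tsg101* and was at 1.83 to 3.11 FPKM.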
